A study of Mus musculus with 14 samples.

Results

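The 8 genes described here mark vascular smooth muscle cells and pericytes, the mural cells that wrap blood vessels. They were taken by name from a count table of 53465 genes, where each matched 1 row. All 8 passed the low-count filter of each fit used below. The genes are Acta2 (chr19:34241090-34255336), Tagln (chr9:45929619-45936058) and Myh11 (chr16:14194527-14291408) on the minus strand, and Cnn1 (chr9:22099216-22109630), Rgs5 (chr1:169655501-169695813), Pdgfrb (chr18:61045150-61085061), Cspg4 (chr9:56865033-56899870) and Des (chr1:75360329-75368579) on the plus strand of GRCm38. Acta2, Tagln, Myh11 and Cnn1 encode parts of the contractile apparatus, Des encodes the intermediate filament protein desmin, and Rgs5, Pdgfrb and Cspg4 are widely used pericyte genes.

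The embryos were wild-type C57BL/6 mice whose polyA RNA was sequenced, and which received no treatment that the labels record. The aorta-gonad-mesonephros region (AGM, the tissue around the dorsal aorta) gave 6 libraries, labelled E9.5, E10.5 and E11.5 (embryonic days), each in 2 sequencing rounds. For the AGM labelled E9.5 the dissected piece was the caudal part of the embryo, which includes the para-aortic splanchnopleura. Dorsal skin gave 4 libraries titled ES and 4 titled E, with 1 of each at the earlier days E9.5 and E10.5 and at the later days E12.5 and E14.5. Total counts were 21527400 to 29534551 in AGM, 6770338 to 15440012 in ES skin and 19929352 to 24003912 in E skin. Nothing in the labels ties the libraries of an age to separate embryos. The p-values below therefore cover the spread between these samples alone, which may be technical.

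Pericytes sit on capillaries and smooth muscle cells coat larger vessels. Endothelial cells release PDGF-B, and mural precursors that carry its receptor, the product of Pdgfrb, are recruited to the vessel wall. Smooth muscle contractile genes are switched on by serum response factor, which binds a promoter element called the CArG box, together with its partner myocardin. Several of these genes are also active elsewhere in the embryo: Acta2 in early heart and skeletal muscle, Des in all muscle, Pdgfrb in mesenchyme and Cspg4 in glial precursors and other mesenchymal cells.

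2 sets of libraries stand apart from their labels. In the ES skin libraries Spp1 (osteopontin) lay at 22229 to 34966 counts per 1000000 (CPM), against 1.19 to 6.45 CPM in E skin. Red blood cell genes summed to between 0 and 0.148 CPM in ES skin, keratinocyte markers to 2.20 to 3.84 CPM and markers of dividing cells to 139 to 233 CPM. The same 3 sums in E skin were 2325 to 8388, 19.5 to 4976 and 1340 to 2350 CPM. Each ES library correlated with the E library of its age at r = 0.625 to 0.716 across genes. In the AGM libraries, genes with a known developmental order ran opposite to the labelled ages. Lin28a, an RNA-binding protein of early embryos that declines with age, lay at 22.99, 121 and 571 CPM in the first round and at 40.85, 129 and 496 CPM in the second, from the youngest to the oldest labelled age. In E skin Lin28a lay at 366, 84.6, 0.67 and 0.94 CPM over the 4 days. Cdx2, a gene of the tail bud, reached 49.2 and 23.1 CPM in the 2 AGM libraries labelled E11.5. The kidney and gonad regulator Wt1 lay at 117, 86.4 and 8.86 CPM in the first round over the same labelled ages. These genes were chosen after their values were seen. The AGM libraries are therefore named by their labelled age throughout, and every direction over AGM age rests on labels that these genes go against. In the second AGM round the table's columns bear no age, only sample numbers, and were given the ages of the same numbers in the first round.

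Promoter sequences from RefSeq (GRCm38.p6) were used for 5 of the 8 genes. Shown here are the 250 bases before the RefSeq start of Acta2, Cnn1 and Rgs5, as examples of contractile genes (Acta2 and Cnn1) and of a pericyte gene (Rgs5) that were higher in E skin at E14.5 than at E9.5. Each runs 5′ to 3′ on the gene's own strand, and capitals mark the 2 stretches of Acta2 that match the CArG box with 1 other letter in its core. They cover chr19:34255374-34255623 on the minus strand for Acta2, chr9:22099003-22099252 on the plus strand for Cnn1, and chr1:169655251-169655500 on the plus strand for Rgs5.
Acta2: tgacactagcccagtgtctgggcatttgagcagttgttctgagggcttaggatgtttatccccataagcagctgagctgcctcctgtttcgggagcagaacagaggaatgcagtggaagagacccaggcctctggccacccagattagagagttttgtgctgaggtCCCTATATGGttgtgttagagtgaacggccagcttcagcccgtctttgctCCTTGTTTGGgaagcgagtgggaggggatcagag
Cnn1: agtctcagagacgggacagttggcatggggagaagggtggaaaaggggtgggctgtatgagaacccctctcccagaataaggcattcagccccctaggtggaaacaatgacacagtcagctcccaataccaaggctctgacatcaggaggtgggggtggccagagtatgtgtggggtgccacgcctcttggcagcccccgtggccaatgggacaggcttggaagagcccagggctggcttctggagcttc
Rgs5: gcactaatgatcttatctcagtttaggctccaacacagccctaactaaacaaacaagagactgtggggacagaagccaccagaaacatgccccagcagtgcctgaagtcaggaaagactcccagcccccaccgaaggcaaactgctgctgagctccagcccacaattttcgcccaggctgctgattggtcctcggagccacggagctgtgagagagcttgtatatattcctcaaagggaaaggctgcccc
Both strands were searched for the CArG box, and an exact match was present in 482 of 32851 mouse promoter windows (1.47%). A match with at most 1 other letter was present in 2823 windows (8.59%), and at least 2 such matches in 220 (0.67%). Acta2 held 0 exact matches and 2 of the looser kind, CCCTATATGG at 84 to 75 bases and CCTTGTTTGG at 34 to 25 bases before the start. The windows of Cnn1, Rgs5, Cspg4 and Des held no match of either kind, which says only that these letters are not in these windows.

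In the AGM all 8 genes were lower in the libraries labelled E11.5 than in those labelled E9.5. The contractile myosin heavy chain Myh11 lay at 12.1, 5.63 and 0.403 CPM in the first round and at 6.00, 3.87 and 0.557 CPM in the second, from the youngest to the oldest labelled age. Cspg4, which encodes the surface proteoglycan NG2, lay at 41.8, 20.7 and 0.967 CPM in the first round and at 26.1, 17.2 and 0.790 CPM in the second. Rgs5, a regulator of G-protein signalling found in pericytes, lay at 91.3, 37.9 and 11.4 CPM in the first round and at 66.1, 42.8 and 10.45 CPM in the second. In these 3 genes the labelled E11.5 libraries were the lowest in both rounds, and no ages overlapped.

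The change from the labelled E9.5 to the labelled E11.5 was largest for Cspg4, at a log2 change of -5.11 ± 0.30 (SE), a 34.6-fold lower level (edgeR quasi-likelihood test, adjusted p = 2.0e-05). Myh11 was 17.1-fold lower (-4.10 ± 0.45, edgeR adjusted p = 0.00028) and Rgs5 6.49-fold lower (-2.70 ± 0.17, edgeR adjusted p = 2.5e-05). The actin-binding contractile protein gene Cnn1 (calponin) averaged 1.93 ± 0.23 CPM in the labelled E11.5 libraries and 8.21 ± 1.79 CPM in the labelled E9.5 libraries (SD, n = 2 each), a log2 change of -1.94 ± 0.24. Pdgfrb averaged 88.9 ± 5.93 CPM at the labelled E11.5 and 221 ± 33.8 CPM at the labelled E9.5 (-1.17 ± 0.14). Des averaged 21.9 ± 1.73 CPM at the labelled E11.5 and 63.7 ± 1.19 CPM at the labelled E9.5 (-1.39 ± 0.11).

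The smallest changes were in the other contractile genes. Tagln (transgelin, an actin-binding protein of smooth muscle) lay at 4.11 and 5.99 CPM in the labelled E11.5 libraries, against 9.99 and 10.8 CPM in those labelled E9.5 (-0.90 ± 0.20, edgeR adjusted p = 0.0068). Acta2 (smooth muscle actin) lay at 84.3 and 87.1 CPM in the labelled E11.5 libraries, against 142 and 114 CPM in those labelled E9.5 (-0.43 ± 0.12, edgeR adjusted p = 0.020). The Acta2 call was lost when the first labelled E9.5 library or either labelled E11.5 library was left out. Over all 17613 genes tested 24% were called lower, and the median log2 change was -1.66 over the 8 genes and -0.004 over all genes.

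Most of the difference lay between the labelled E10.5 and E11.5. All 8 genes were lower at the labelled E11.5 than at the labelled E10.5, where 15.4% of genes were called lower. The log2 changes ran from -0.54 ± 0.12 for Acta2 to -4.33 ± 0.31 for Cspg4, with Des at -1.83 ± 0.11 and Tagln at -1.19 ± 0.20. The Acta2 call in this comparison was lost without the first labelled E10.5 library or either labelled E11.5 library. Between the labelled E10.5 and E9.5 only Rgs5 was called, at -0.91 ± 0.16 (edgeR adjusted p = 0.032), where 1.72% of genes were called lower and 2.59% in either direction. With the sequencing round as a replicate block that count rose to 5, with Rgs5, Cspg4, Myh11 and Pdgfrb lower and Des higher (edgeR log2 change 0.44, adjusted p = 0.00053). The calls over all genes rose as well with that block, to 4237 of 17613 in either direction. Without the first labelled E9.5 library, or either labelled E10.5 library, none of the 8 was called.

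**Figure D1:**
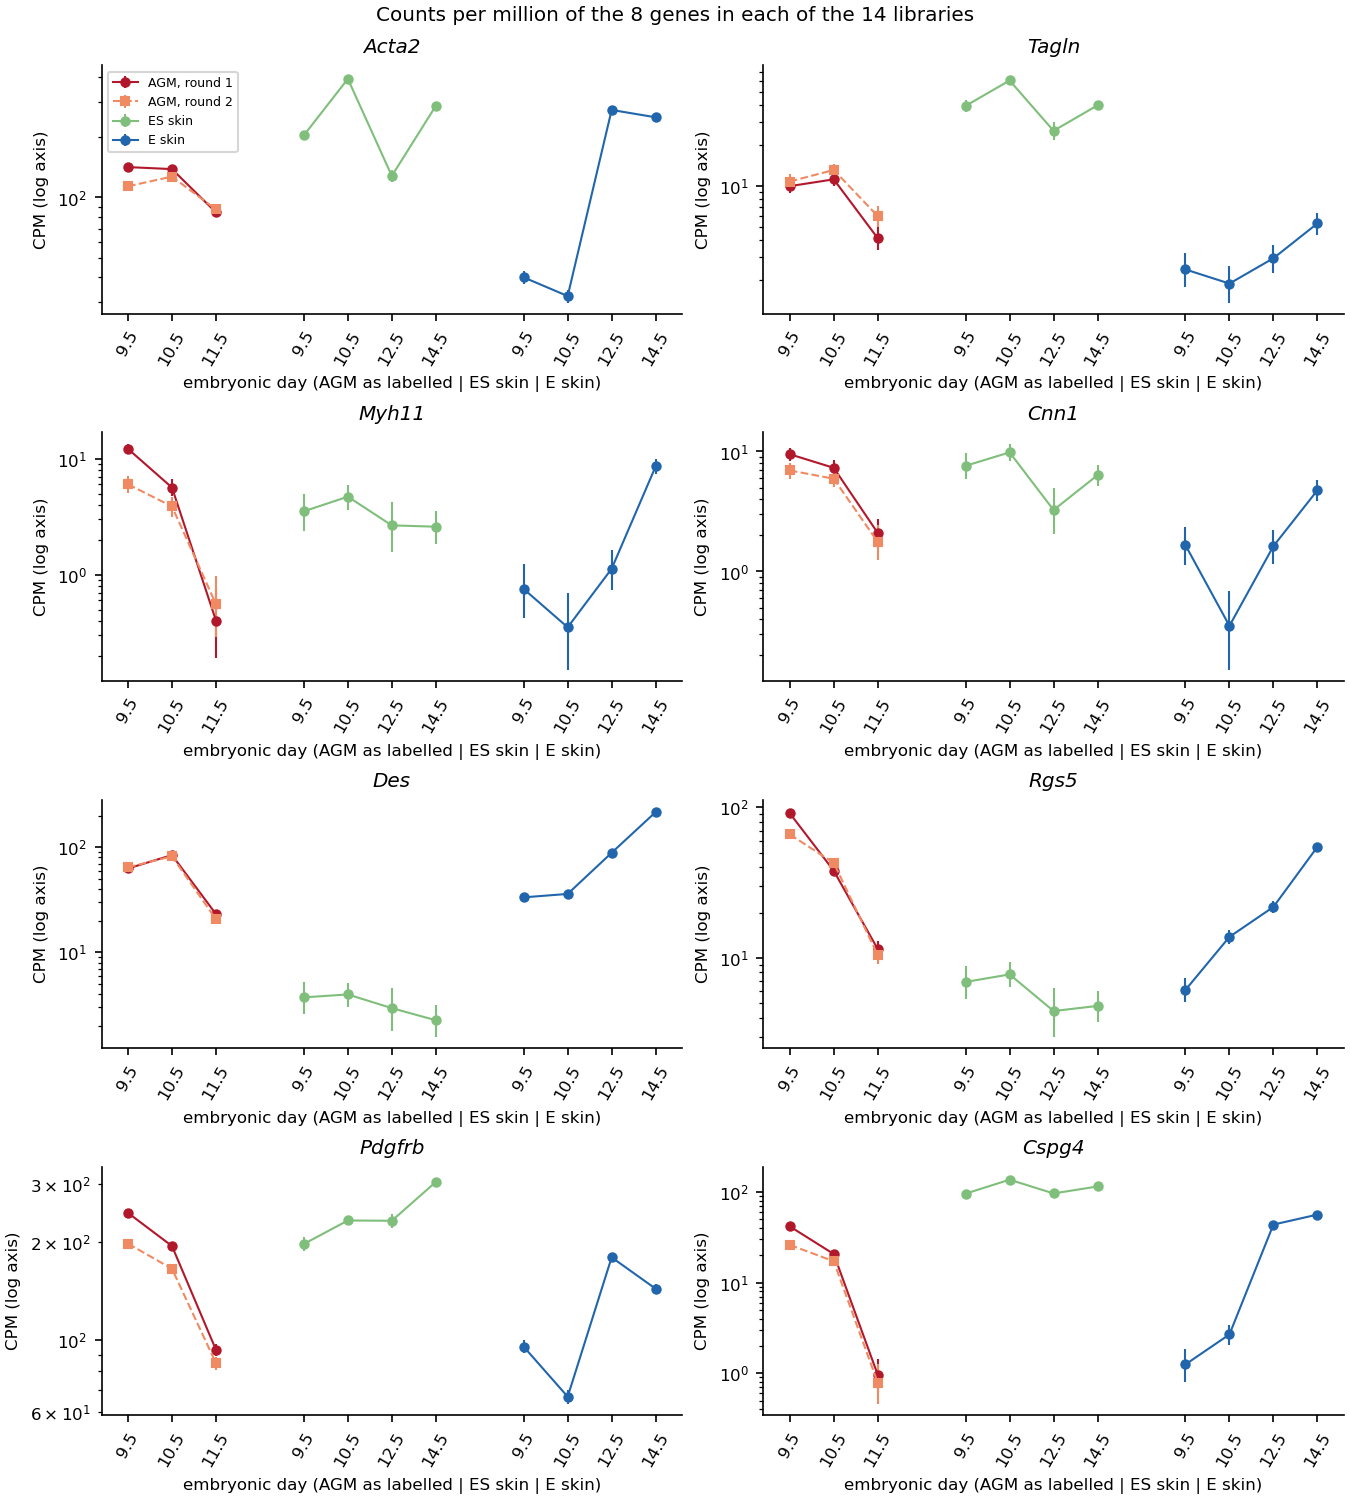
CPM of each gene (log axis) against embryonic day, for the AGM libraries of both sequencing rounds by labelled age, ES skin and E skin. Each point is 1 library and bars are 95% counting intervals. In AGM every gene is lowest at the labelled E11.5, while in E skin every gene ends higher at E14.5 than at E9.5.

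Set against E skin of the same day, all 8 genes were higher in AGM, on both shared days. At E9.5, 18% of all 19945 genes tested were called higher in AGM, and at E10.5 11.7%. The median log2 change of the 8 genes was 2.16 at E9.5, against 0.04 over all genes, and 2.38 at E10.5, against 0.01 over all genes. Each E skin age is 1 library here and was assumed to vary like the AGM pairs. AGM and skin were sequenced in different projects, so tissue and project cannot be told apart. When the ES libraries were taken as second replicates of skin, in a fit of all 14 libraries, none of the 8 genes passed the test in any AGM or E skin comparison. In that fit 5 of the 8 were higher in AGM on each day without passing the test. Cspg4 (-0.81 at E9.5, -2.15 at E10.5), Tagln (-1.29 and -1.63) and Acta2 (-0.19 and -0.93) had the opposite sign.

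At E9.5 the differences were largest for Cspg4, Rgs5 and Myh11. Cspg4 lay at 41.8 and 26.1 CPM in AGM labelled E9.5, against 1.25 CPM (25 counts) in E skin, a log2 change of 4.71 ± 0.40. Rgs5 lay at 91.3 and 66.1 CPM in AGM, against 6.12 CPM in E skin (3.63 ± 0.25). Both AGM libraries stood more than 10-fold above the skin library for these 2 genes. Among the contractile genes Myh11 was 11.6-fold higher in AGM (3.54 ± 0.58) on 15 counts in E skin, Cnn1 4.79-fold, Tagln 4.16-fold and Acta2 3.08-fold. Pdgfrb was 2.25-fold and Des 1.84-fold higher in AGM labelled E9.5 than in E skin at E9.5.

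At E10.5 the differences were largest for Cnn1 and Myh11. Cnn1 lay at 7.30 and 5.93 CPM in AGM labelled E10.5, against 0.352 CPM (8 counts) in E skin, a log2 change of 4.22 ± 0.43 (edgeR adjusted p = 0.00024). Myh11 was 13.4-fold, Cspg4 7.12-fold, Tagln 6.48-fold and Acta2 4.15-fold higher in AGM. Rgs5 was 2.95-fold higher in AGM at E10.5, where E skin had reached 13.8 CPM.

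Because the AGM age labels are in doubt, the AGM libraries labelled E11.5 were also set against E skin at E9.5, a comparison added after the data were seen. Acta2 alone among the 8 was then called, 1.23 ± 0.16 higher on the log2 scale in AGM (edgeR adjusted p = 0.0033), where 4.06% of genes were called higher and 6.85% in either direction. Rgs5 was 0.97 ± 0.24 and Tagln 1.19 ± 0.30 above E skin without passing the test (edgeR adjusted p = 0.052 and 0.054). Des (-0.48 ± 0.12), Myh11 (-0.53 ± 0.71) and Cspg4 (-0.38 ± 0.51) had the opposite sign and were not called. At E9.5 the height of the 8 genes in AGM over E skin thus rests on which AGM libraries are taken as E9.5. The comparison at E10.5 takes its AGM level from the libraries labelled E10.5 alone.

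The change of the AGM over the labelled E9.5 and E10.5 was compared with the change of E skin over the same days. By the labelled AGM ages Rgs5 moved in opposite directions, at a log2 change of -0.91 in AGM and 1.17 in E skin. The difference of -2.07 ± 0.31 passed the test (edgeR adjusted p = 0.0077), where 5.04% of genes were called lower and 7.67% in either direction. For the other 7 genes the difference did not pass. With the replicate block the differences were -2.06 for Rgs5 and -1.85 for Cspg4. Those of the other genes were positive, from 0.25 for Myh11 to 1.97 for Cnn1.

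**Figure D2:**
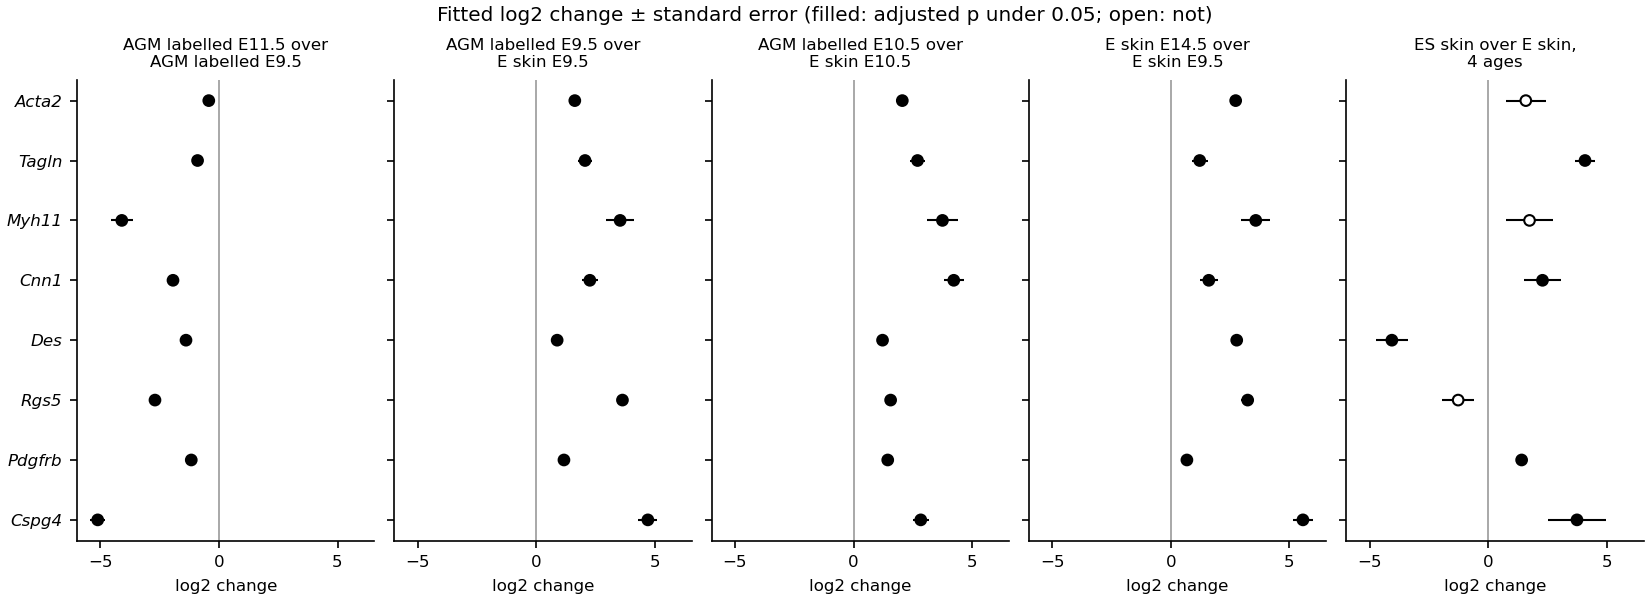
Fitted log2 change with its standard error (horizontal axis) of the 8 genes in 5 comparisons, filled where the adjusted p is under 0.05 and open where it is not. All 8 points lie left of 0 for AGM labelled E11.5 over E9.5 and right of 0 for AGM over E skin and for E skin E14.5 over E9.5, while Des and Rgs5 stand apart from the other genes in ES skin over E skin.

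In E skin all 8 genes were higher at E14.5 than at E9.5, where 25.9% of genes were called higher. The median log2 change of the 8 was 2.75, against 0 over all genes. Cspg4 lay at 1.25, 2.69, 43.8 and 56.4 CPM over the 4 days, a log2 change of 5.57 ± 0.42 at E14.5 over E9.5. Myh11 lay at 0.753, 0.352, 1.12 and 8.55 CPM over the same days (3.58 ± 0.62). Rgs5 was higher on each later day, with 6.12, 13.8, 21.8 and 54.6 CPM (3.24 ± 0.26 at E14.5 over E9.5). Cspg4 made most of its rise before E12.5 and Myh11 after it.

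Desmin transcripts lay at 33.4, 36.0, 88.7 and 216 CPM over the 4 days, and Des was 6.84-fold higher at E14.5 than at E9.5. Acta2 lay at 40.0, 32.3, 273 and 251 CPM and was 6.64-fold higher at E14.5. Pdgfrb lay at 95.1, 66.8, 179 and 143 CPM and was 1.6-fold higher at E14.5, the smallest of the 8 changes. Cnn1 lay at 1.66, 0.352, 1.62 and 4.75 CPM (3.03-fold higher at E14.5) and Tagln at 2.41, 1.89, 2.92 and 5.28 CPM (2.32-fold higher).

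All comparisons between E skin days, E14.5 over E9.5 included, set 1 library against another, and their p-values take the spread from the AGM pairs, which give all residual degrees of freedom of that fit. From E9.5 to E10.5 Rgs5 rose (1.17 ± 0.27, edgeR adjusted p = 0.039) and Cnn1 fell (-2.22 ± 0.52, edgeR adjusted p = 0.043), the second on 8 counts at E10.5 and 33 at E9.5. In that step 4.64% of genes were called higher, 1.79% lower and 6.43% in either direction, and neither call held with limma-voom or without either AGM library labelled E11.5. At E12.5 over E10.5 Cspg4 (15.7-fold), Acta2 (8.17-fold), Cnn1 (4.41-fold), Pdgfrb (2.59-fold) and Des (2.38-fold) were higher, where 17.4% of genes were called higher. The Cnn1 call of this step was lost with limma-voom. At E14.5 over E12.5 Myh11 (8.29-fold), Cnn1 (3.19-fold), Rgs5 (2.74-fold) and Des (2.67-fold) were higher, where 14.3% of genes were called higher.

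The replicate block marks the AGM rounds only, since each E skin day is 1 library. It left the log2 changes between E skin days as they were, such as -0.51 for Pdgfrb at E10.5 over E9.5 and 0.61 for Rgs5 at E12.5 over E10.5. Only the spread taken from the AGM pairs became smaller, with a common dispersion of 0.0040 with the block and 0.0147 without it. The further calls it gave between E skin days therefore rest on no measured spread of skin.

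Acta2 and Pdgfrb had reached their highest level by E12.5. Acta2 differed by 0.01 ± 0.17 on the log2 scale at E14.5 over E12.5, and its sign depended on the scaling, since its CPM was 0.919 times as high. Pdgfrb differed by -0.19 ± 0.19 in that step. With the replicate block the log2 changes of E14.5 over E12.5 were the same, at 0.99 for Tagln, 0.50 for Cspg4 and -0.19 for Pdgfrb. Cnn1 and Des were the 2 genes called higher in both of the last steps.

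Between ES skin and E skin of the same ages the genes described here ran in both directions, as did genes over the whole fit. Tagln, Cspg4, Cnn1 and Pdgfrb were higher in ES skin and Des was lower. Of all 16588 genes tested, 29.5% were called higher, 29.3% lower and 58.8% in either direction. The share of the genes described here that was called lay near that last share. The number of calls alone therefore does not set these genes apart. Tagln lay at 39.3, 60.7, 25.7 and 39.7 CPM in ES skin over the 4 days, against 2.41, 1.89, 2.92 and 5.28 CPM in E skin, a log2 change of 4.08 ± 0.43 (edgeR adjusted p = 0.00082). Des lay at 3.74, 3.99, 2.95 and 2.27 CPM in ES skin, against 33.4, 36.0, 88.7 and 216 CPM in E skin (-4.06 ± 0.68, edgeR adjusted p = 0.0038). For both genes the 2 sets did not overlap.

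Pdgfrb lay at 197, 232, 232 and 305 CPM in ES skin, 2.65-fold above E skin in the fit (1.41 ± 0.24). Cspg4 lay at 96.1, 137, 96.6 and 115 CPM in ES skin, so its ratio to E skin was 76.6 and 51.0 on the first days and 2.21 and 2.04 on the last. Cnn1 lay at 7.60, 9.83, 3.25 and 6.35 CPM in ES skin and was 4.89-fold higher in the fit. The calls of Cspg4 (3.74 ± 1.23, edgeR adjusted p = 0.041) and Cnn1 (2.29 ± 0.79, edgeR adjusted p = 0.047) were both lost when any 1 library of E9.5 or E10.5 was left out, and that of Cnn1 also without either E12.5 library. Without either E10.5 library 3 of the 8 genes were called, namely Tagln, Pdgfrb and Des.

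Acta2, Myh11 and Rgs5 did not pass the test between ES and E skin, at log2 changes of 1.59 ± 0.85, 1.74 ± 0.99 and -1.27 ± 0.67. Their ratios ran in both directions over the ages. Rgs5 in ES skin was 1.13, 0.563, 0.203 and 0.0878 times its level in E skin over the 4 days, while it stayed between 4.43 and 7.76 CPM in ES skin. Myh11 in ES skin was 4.67, 13.3, 2.36 and 0.303 times its level in E skin, and Acta2 5.10, 12.1, 0.469 and 1.14 times. Across the 4 ES libraries Cspg4 spanned 1.43-fold, Pdgfrb 1.55-fold and Rgs5 1.75-fold, against 45.0-fold, 2.68-fold and 8.91-fold across the 4 E libraries.

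**Figure D3:**
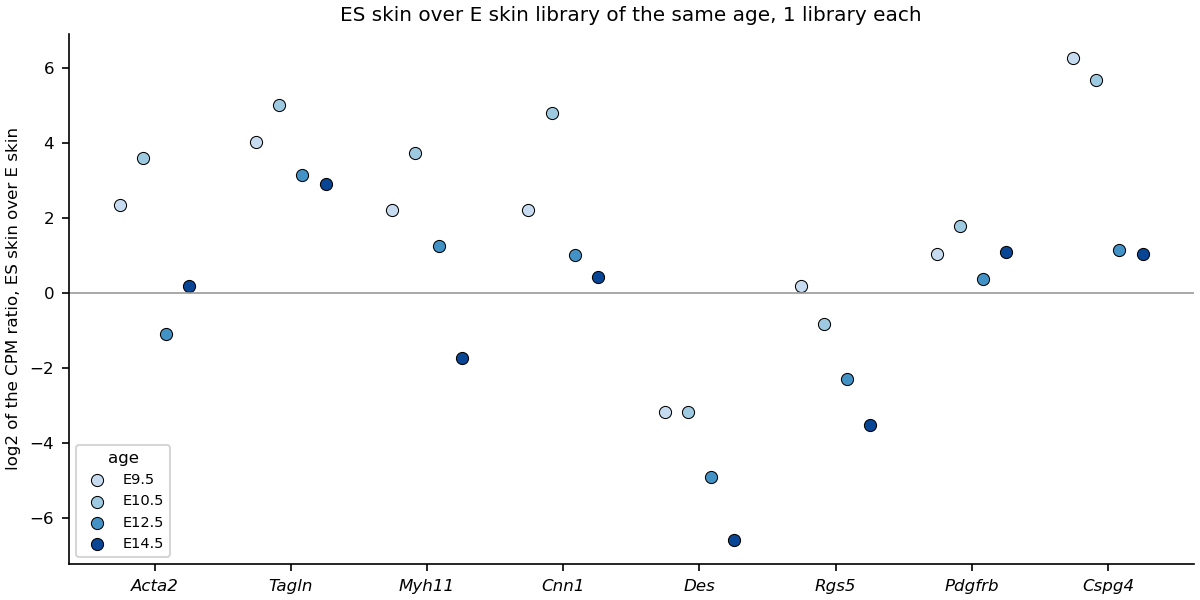
Log2 ratio of CPM in the ES skin library over the E skin library of the same age (vertical axis) for each of the 8 genes, with 1 point per age. Tagln, Cnn1, Pdgfrb and Cspg4 lie above 0 and Des below 0 at all 4 ages, while Acta2, Myh11 and Rgs5 fall on both sides.

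Levels were compared between genes per kilobase of annotated exon. Acta2 was the highest of the 8 in each of the 14 libraries, at 38.4 to 64.5 CPM per kb in AGM, 58.3 to 177 CPM per kb in ES skin and 14.7 to 124 CPM per kb in E skin. Pdgfrb followed in all AGM and ES skin libraries, at 15.5 to 44.7 CPM per kb in AGM and 35.9 to 55.7 CPM per kb in ES skin. In E skin at E14.5 Des was second at 57.5 CPM per kb, above Pdgfrb at 26.2. In AGM labelled E11.5 the lowest levels were those of Myh11 (0.0530 and 0.0734 CPM per kb) and Cspg4 (0.0810 and 0.0662 CPM per kb), a pair whose order differed between rounds. Reads that fit the near-identical coding sequences of Acta2 and its relatives Actg2, Acta1 and Actc1 may have been split between them, and how the counting treated them is not stated. Actg2, the enteric smooth muscle actin, lay at 10.6 and 6.08 CPM in AGM labelled E9.5. The exons of Tagln overlap 1241 bases of Gm48529 and 108 bases of Pcsk7 on the other strand, and those of Des 220 bases of Gm15179. Whether reads were counted by strand is not stated.

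Lists of related genes moved with the 8 to differing extents, and their counts are to be read beside the shares over all genes. In AGM labelled E11.5 over E9.5 24% of all genes were called lower, and in ES over E skin 29.5% higher and 29.3% lower. For the other comparisons the shares are those given above. Within AGM E11.5 over E9.5, E skin E14.5 over E9.5 and AGM over E skin, only the share in the direction of the 8 genes is given. Counts in the opposite direction have no share beside them and are not read as results. The counts of contractile genes in ES over E skin lay near the shares over all genes. Of 15 tested smooth muscle contractile genes outside the set, 8 were lower and 0 higher in AGM labelled E11.5 than in AGM labelled E9.5 (median log2 change -0.83). Actg2 (-2.93 ± 0.33), the actin-bundling protein gene Synpo2 (-1.87 ± 0.22) and the regulatory myosin light chain gene Myl9 (-1.77 ± 0.14) were the most reduced. In E skin 12 of the 15 were higher and 0 lower at E14.5 than at E9.5 (median 1.21), among them the tropomyosin gene Tpm2 (3.55 ± 0.22) and Synpo2 (2.75 ± 0.31). In AGM labelled E9.5 10 of the 15 were higher and 0 lower than in E skin at E9.5 (median 0.91), and in ES skin 4 of 14 were higher and 3 lower than in E skin (median 0.54).

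Of 17 transcriptional regulators of smooth muscle and pericytes, 9 were lower and 1 higher in AGM labelled E11.5 than in AGM labelled E9.5 (median log2 change -0.45). The forkhead gene Foxs1, a pericyte gene, lay at 0 and 0.0465 CPM in AGM labelled E11.5, against 1.02 and 0.616 CPM in AGM labelled E9.5. The T-box repressor gene Tbx2 lay at 6.12 and 8.45 CPM in AGM labelled E11.5, against 91.0 and 81.2 CPM in AGM labelled E9.5 (-3.42 ± 0.18). The Notch target gene Heyl lay at 10.8 and 9.99 CPM in AGM labelled E11.5, against 52.4 and 45.8 CPM in AGM labelled E9.5 (-2.10 ± 0.12). In E skin the regulators ran in both directions at E14.5 over E9.5 (median 0.26), and the forkhead gene Foxc2 fell by 5.56 ± 0.28 on the log2 scale. Myocd, which encodes myocardin and is named for that role and not for its values, lay at 3.30 to 8.36 CPM in AGM, 0 to 0.148 CPM in ES skin and 0.880 to 2.96 CPM in E skin.

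Of 20 ligands and receptors of mural cell recruitment, 10 were lower and 2 higher in AGM labelled E11.5 than in AGM labelled E9.5 (median log2 change -0.61). The growth factor genes Tgfb2 (-2.15 ± 0.16), Tgfb3 (-1.99 ± 0.18) and Pdgfc (-1.63 ± 0.12) changed most. In E skin 15 of the 20 were higher and 2 lower at E14.5 than at E9.5 (median 1.11), with the receptor gene Tgfbr2 at 3.36 ± 0.23. Pdgfb, the ligand of the Pdgfrb receptor, lay at 10.03 and 6.50 CPM in AGM labelled E11.5, against 9.41 and 5.88 CPM in AGM labelled E9.5. In ES skin Pdgfb lay at 0.794 to 2.07 CPM, against 10.04 to 30.3 CPM in E skin (-3.20 ± 0.37).

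Of 14 tested further pericyte genes, 11 were lower and 3 higher in AGM labelled E11.5 than in AGM labelled E9.5 (median log2 change -1.34), and in E skin 13 of 15 were higher and 1 lower at E14.5 than at E9.5 (median 2.96). Kcnj8, a potassium channel subunit of pericytes, lay at 0 and 0.0465 CPM in AGM labelled E11.5, against 3.01 and 1.56 CPM in AGM labelled E9.5. The pericyte gene Ndufa4l2 lay at 1.17 and 1.16 CPM in AGM labelled E11.5, against 8.97 and 7.93 CPM in AGM labelled E9.5. In ES skin 8 of 14 were lower and 3 higher than in E skin (median -1.83). The metalloreductase gene Steap4 lay at 102 to 335 CPM in ES skin, against 0.201 to 3.63 CPM in E skin (7.76 ± 0.56). ES skin thus held more Cspg4 and Pdgfrb RNA than E skin and less of most of the other pericyte genes tested.

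Markers of other cell types were read beside these changes, with the same shares over all genes. Endothelial markers (8 genes) summed to 340 to 420 CPM over the 6 AGM libraries. Of the 8, 1 was higher and 2 lower in AGM labelled E11.5 than in AGM labelled E9.5 (median log2 change 0.23). The count called lower lay near the 24% of all genes. Their median log2 change in AGM over E skin was -0.10 on day E9.5 and 0.16 on day E10.5. In E skin 4 of 8 were higher at E14.5 than at E9.5. In ES skin all 8 endothelial markers were lower than in E skin, with sums of 20.3 to 39.7 CPM in ES skin and 325 to 634 CPM in E skin.

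The sum of the skeletal muscle markers was 39.0 and 36.6 CPM in AGM labelled E11.5, against 136 and 215 CPM in AGM labelled E9.5, and 8 of 11 tested were lower (median log2 change -2.52). In E skin the sum was 91.6, 247, 1471 and 3292 CPM over the 4 days, and 11 of 12 were higher at E14.5 than at E9.5. In ES skin it was 83.1 to 108 CPM, of which the acetylcholine receptor gene Chrna1, singled out after its values were seen, made up 65.0 to 97.1 CPM. There 9 of 10 tested were lower than in E skin, and Myod1, Myog, Myf5, Mymk and Ckm were at 0 in every library. Fibroblast markers summed to 1452 and 1581 CPM in AGM labelled E11.5, against 4108 and 2818 CPM in AGM labelled E9.5, where 4 of 8 were lower and 1 higher (median log2 change -0.83). They summed to 9505 to 13006 CPM in ES skin and 1005 to 32289 CPM in E skin, where 8 of 8 were higher at E14.5 than at E9.5. In AGM labelled E9.5 over E skin at E9.5, 6 of 12 skeletal muscle, 5 of 8 fibroblast and 7 of 7 red blood cell genes were higher, with red blood cell sums of 9235 to 20466 CPM over all AGM libraries and 2325 to 8388 CPM over E skin. The part of these cell types in the changes of the 8 genes was not tested. In bulk tissue, fewer cells of a type and less RNA per cell cannot be told apart.

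**Figure D4:**
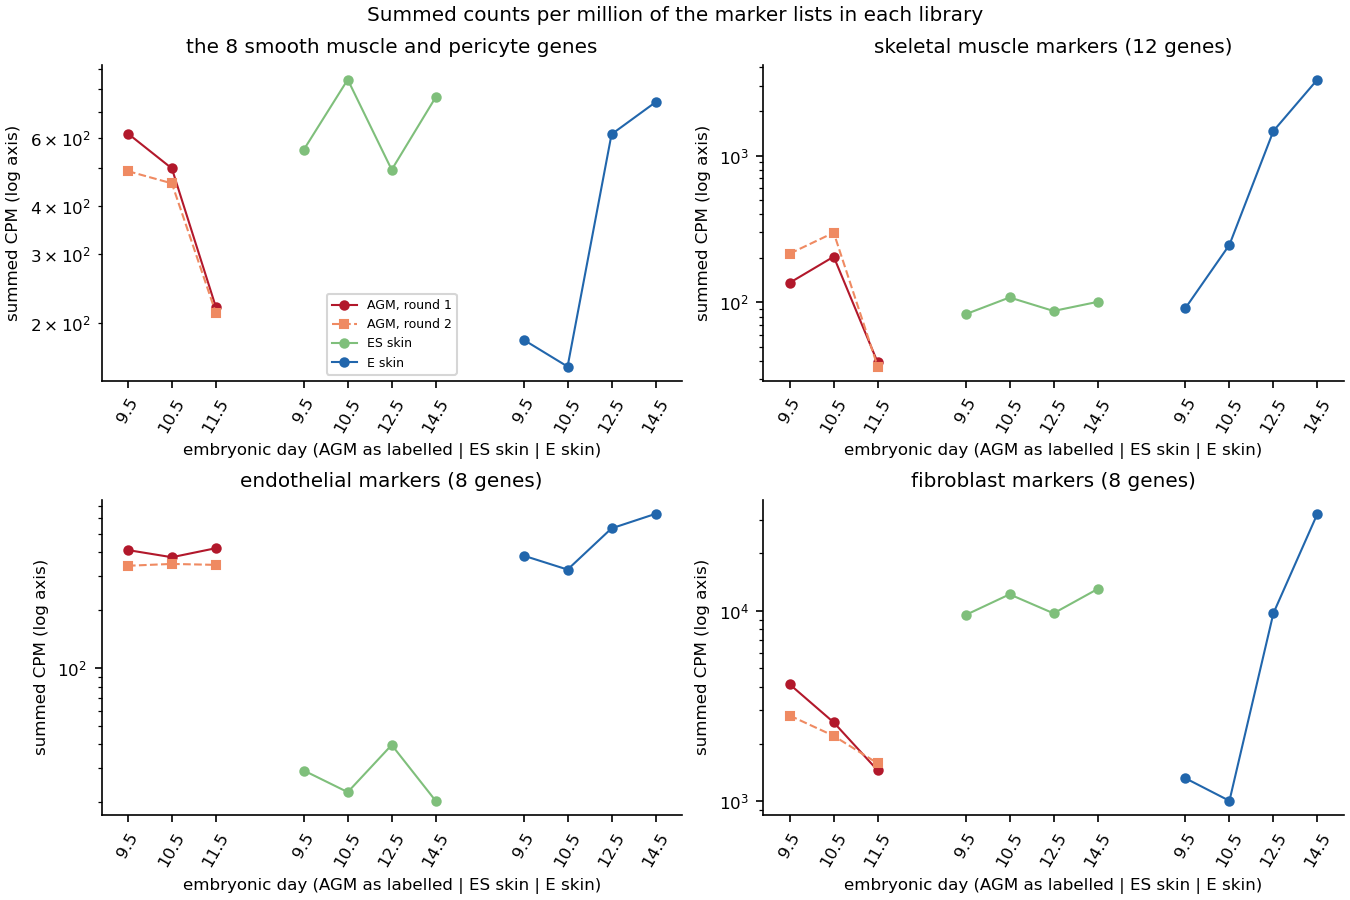
Summed CPM (log axis) of the 8 smooth muscle and pericyte genes and of the skeletal muscle, endothelial and fibroblast markers in each library, by embryonic day as labelled. The endothelial sum stays between 340 and 420 CPM in all 6 AGM libraries while the sum of the 8 genes is 220 and 212 CPM at the labelled E11.5, against 614 and 491 CPM at the labelled E9.5, and Chrna1 makes up most of the skeletal muscle sum in ES skin.

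Among themselves the 8 genes varied together to differing degrees over the 4 E skin and 6 AGM libraries, described by Pearson's r of log2(CPM + 1). These points share tissue, age and sequencing project. The closest pair was Myh11 and Rgs5 (r = 0.934, n = 10), then Myh11 and Cnn1 (0.914), Tagln and Cnn1 (0.904) and Cspg4 and Des (0.904). The least alike were Tagln and Des (0.335). Among 11382 genes with a mean of at least 5 CPM, the genes most like each member in the same measure were Kcp for Pdgfrb (0.997), Mfap2 for Cspg4 (0.992), Ryr1 for Des (0.983), Sorl1 for Myh11 (0.983), Aldh1a3 for Acta2 (0.983), Pf4 for Rgs5 (0.977), Gdnf for Cnn1 (0.968) and Gpbp1l1 for Tagln (0.966). None of the 8 was among the nearest 3 of another. Vcl (vinculin), of the contractile list, was the second nearest to Des (0.974).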

How the data were processed

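PolyA RNA-seq of 14 libraries of mouse AGM and dorsal skin was analysed from the gene counts that the authors deposited, which are whole reads per gene and not normalized. Per the submitters' processing notes, featureCounts 1.6.0, Trimmomatic 0.36, DESeq2 1.20.0 and STAR 2.5.0a were used, with no role stated for each, on the build GRCm38 (mm10). The settings for strand and for reads that map to several places are not given in the sources used here.

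CPM is the count per 1000000 of a library's total. Counts were tested with edgeR 4.0.16 (R 4.3.3; TMM scaling, filterByExpr, quasi-likelihood test), with Benjamini-Hochberg adjustment over all genes tested and a threshold of 0.05. AGM ages were fitted on the 6 AGM libraries (17613 genes), E skin ages and AGM over E skin on these with the 4 E skin libraries (19945 genes), and ES over E skin on the 8 skin libraries with age as a term (16588 genes). Each fit had 3 residual degrees of freedom. The standard errors of the edgeR changes were derived as the absolute log2 change over the square root of the test's F statistic. Alternatives were median-of-ratios scaling, DESeq2 1.42.0, limma-voom (limma 3.58.1), no filter, and leaving out haemoglobin and mitochondrial genes. Further alternatives were a replicate block, all 14 libraries, and leaving out each replicated library. In ES over E skin the age term was left out instead of adding a block. On simulated data the fit recovered 96% of 100 genes changed 2-fold in AGM E11.5 over E9.5, 56% in E skin E12.5 over E10.5, 80% in AGM over E skin at E9.5 and 6% in ES over E skin. At 4-fold it recovered 100%, 100%, 100% and 80% for the same comparisons. Only genes with a mean of at least 5 CPM were changed, the same floor as in the likeness search. All genes were given 1 common dispersion, which for E skin came from the AGM pairs. Recovery at lower levels, such as those of Myh11 and Cnn1 in E skin before E14.5, was not measured.

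Replicate numbers mark shared sequencing projects in the labels and so pair the samples. The differences between replicates correlated at 0.256 to 0.319 between AGM ages and at 0.753 to 0.919 between skin ages. All 8 genes were tested in every main comparison, and some comparisons name only part of them. From each related list at most the 3 called genes of largest change were named. Named besides these were Myocd, Pdgfb in AGM, Chrna1 and the skeletal muscle markers at 0 in ES skin. Likeness was read from the 3 genes most like each member by Pearson's r. The members and lists were chosen with earlier results of these data known. No 2 libraries held identical values. Intervals on counts cover counting error only.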

Additional observations from a re-analysis of the deposited data

Results flagged for a closer look

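Rgs5 differed between the AGM and E skin libraries in its change over the labelled E10.5 and E9.5, by a test of the difference itself. The AGM change minus the E skin change was -2.07 ± 0.31 on the log2 scale (edgeR adjusted p = 0.0077). Rgs5 lay at 37.9 and 42.8 CPM in AGM labelled E10.5, against 91.3 and 66.1 CPM in AGM labelled E9.5, and so was lower in 2 of 2 rounds. In E skin it lay at 13.8 CPM at E10.5, against 6.12 CPM at E9.5. The AGM direction rests on the labelled ages.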

How the results depend on the processing

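The fit of all 14 libraries called 0 of the 8 genes by edgeR in each of the 10 AGM and E skin comparisons, against 1 to 8 in the fits reported, and its common dispersion was 0.664, against 0.0146 and 0.0147. At an unadjusted p under 0.05 it held 3 of the 8 in AGM labelled E11.5 over E9.5, 1 in E11.5 over E10.5, E skin E14.5 over E9.5 and AGM over E skin at E9.5, with 0 elsewhere. With the replicate block added it called 1 gene in AGM over E skin at E9.5 (Rgs5), 1 at E10.5 (Des), and 0 elsewhere. Leaving aside the difference of the AGM and E skin changes, 17 log2 changes turned round in the fit of all 14 libraries. In E skin E10.5 over E9.5 these were Acta2 0.85, Tagln 0.62, Myh11 0.31, Cnn1 0.21 and Pdgfrb 0.093. In E12.5 over E10.5 they were Acta2 -0.31, Tagln -1.19, Myh11 -0.53, Cnn1 -1.20 and Cspg4 -0.12, and in E14.5 over E12.5 Pdgfrb 0.27. In AGM over E skin they were Acta2 -0.19, Tagln -1.29 and Cspg4 -0.81 at E9.5, with Acta2 -0.93, Tagln -1.63 and Cspg4 -2.15 at E10.5. Leaving that difference aside again, 12 turned round with the replicate block. In E skin these were Acta2 0.67, Tagln 0.31 and Myh11 0.10 in E10.5 over E9.5, Tagln -0.51, Myh11 -0.10, Cnn1 -0.34 and Rgs5 -0.077 in E12.5 over E10.5, and Pdgfrb 0.12 in E14.5 over E12.5. In AGM over E skin they were Tagln -0.070 at E9.5 and Acta2 -0.31, Tagln -0.11 and Cspg4 -0.60 at E10.5. For the difference of the AGM and E skin changes, 1 of the 8 log2 changes was positive in the fit of all 14 libraries, with or without the block. The median of the 8 in the fit reported was 0.31, so signs turned round there too and are not counted above. The cause was not tested.

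Within the fits reported, the replicate block called 5 of the 8 genes in AGM labelled E10.5 over E9.5 (1 without it), 3 in E skin E10.5 over E9.5 (2 without it), 7 in E14.5 over E12.5 (4 without it) and 6 for the difference of the AGM and E skin changes (1 without it). It turned no direction and ended no call among the 8 genes. Between E skin days it changed only the spread taken from the AGM pairs. Without the age term, ES over E skin again gave 5 calls, with Rgs5 gained and Cspg4 lost. In AGM labelled E10.5 over E9.5 DESeq2 called 3, no low-count filter 4, and leaving out 1 library 0 to 2. In E skin E10.5 over E9.5 these were 1, 4 and 0 to 2, with 0 under limma-voom. For the difference of the changes they were 2, 3 and 1 to 2. In ES over E skin leaving out 1 library gave 3 to 6. The added comparison of AGM labelled E11.5 with E skin E9.5 called 1 gene, with Myh11 at -0.53, Cspg4 at -0.38 and Des at -0.48. Leaving out 1 library gave Acta2 -0.036 to 0.28 in AGM labelled E10.5 over E9.5 and -0.016 to 0.010 in E skin E14.5 over E12.5, where it was -0.042 without the filter. On TMM library sizes the levels of all 8 genes were multiplied by 0.889 to 0.982 in E skin, 1.13 to 1.204 in ES skin and 0.911 to 1.01 in AGM. The change went beyond the spread of the levels (counting error in skin, rounds in AGM) in 3 libraries. These were E skin E12.5 (0.889), ES skin E10.5 (1.15) and ES skin E14.5 (1.204).

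Over all genes the calls with and without the block were 4237 and 457 in AGM labelled E10.5 over E9.5, 8491 and 4791 in E11.5 over E10.5, 3872 and 1282 in E skin E10.5 over E9.5, 9568 and 6003 in E12.5 over E10.5, 9023 and 5488 in E14.5 over E12.5, 10234 and 6759 in AGM over E skin on day E9.5, 8491 and 4779 on day E10.5, and 5137 and 1530 for the difference of the changes. Without the filter these were 1769 in AGM labelled E10.5 over E9.5, 2151 in E skin E10.5 over E9.5 and 2651 for the difference, and DESeq2 called 929 in the first. The fit of all 14 libraries called 0 in all 10, and with the block 0 to 50 except 211 in AGM labelled E11.5 over E9.5, 4321 in AGM over E skin on day E9.5 and 3844 on day E10.5. Leaving out 1 library moved AGM labelled E10.5 over E9.5 to as few as 1, E11.5 over E10.5 to 2794 and the difference to 930. The added comparison called 1366. Depth limits Myh11, Cnn1, Tagln and Cspg4, with 8 to 61 counts in E skin at E9.5 and E10.5.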
